A study of Homo sapiens with 4 samples.

Results

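MALAT1, NEAT1, TUG1, NORAD, OIP5-AS1, PVT1 and CRNDE are long noncoding RNAs (lncRNAs), transcripts that act mostly without being translated. These 7 were chosen by symbol, and all of them were found among the 33640 genes counted in nuclei of H9 cells, an established line of human pluripotent stem cells. At a mean of at least 10 RPM (counts scaled to a library total of 1000000) over the libraries, 6 of the 7 passed, as did 11564 genes in all, and CRNDE fell below this limit. The experiment tested whether reverse transcription (RT) should come before or after the Tn5 tagmentation step when RNA is read together with histone marks. The 4 libraries were Post, RNA and DNA; Post, RNA only; Pre, RNA and DNA; and Pre, RNA only. In Post libraries RT followed tagmentation and in Pre libraries it came first. RNA and DNA means that H3K27me3 and H3K27ac, a repressive and an active histone mark, were profiled from the same nuclei, while RNA only libraries carry no mark in their label. In all of them nuclei were fixed with 0.2% formaldehyde for 5 min and poly(A) RNA was captured. The sources do not say which tagmentation steps the RNA only samples went through, or whether the samples came from separate cultures.

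LncRNAs of this kind work in different places. MALAT1 gathers in nuclear speckles, bodies rich in splicing factors, and NEAT1 is the scaffold of paraspeckles, which hold the proteins NONO and SFPQ. TUG1 is found in both nucleus and cytoplasm and has been tied to Polycomb proteins. NORAD and OIP5-AS1 (cyrano) are known mainly from the cytoplasm, where NORAD binds Pumilio proteins through repeated short elements and cyrano pairs with miR-7. PVT1 lies next to MYC and its promoter competes with that of MYC for enhancers, and CRNDE is transcribed from the opposite strand next to IRX5 and is abundant in many tumours. A cytoplasmic fraction was not measured, so the label nuclear could not be checked for any of the 7, and in bulk RNA fewer expressing cells and less RNA per cell cannot be told apart.

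The primers of this method pair with runs of A, and 2 of the RNAs end in an unusual way. MALAT1 and the long form of NEAT1 have no poly(A) tail: RNase P cuts off a tRNA-like end, and the new end folds into a triple helix in which a run of A pairs with U-rich stretches. Shown here are the last 100 bases before that cut for MALAT1, on the plus strand of GRCh38 at chr11:65506017-65506116, and the last 100 bases of the annotated gene for NEAT1, on the same strand at chr11:65445441-65445540. Capitals mark the motif TTTTGCTTTT and, at the very end, a run of A followed by GCAAAA.
MALAT1, 3′ end: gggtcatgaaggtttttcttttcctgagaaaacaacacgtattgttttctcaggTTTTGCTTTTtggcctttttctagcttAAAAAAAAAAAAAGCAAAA
NEAT1, 3′ end: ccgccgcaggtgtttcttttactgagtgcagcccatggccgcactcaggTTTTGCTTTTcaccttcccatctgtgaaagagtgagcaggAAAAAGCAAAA
Both motifs stand in both ends, in the same order. Searched on the transcript strand, TTTTGCTTTT was present in the last 100 bases of 0.0745% of the longest transcripts of 18794 other lncRNA genes, and a run of A followed by GCAAAA in 0.0532% of them. None of them, 0, held both. This search covered annotated ends only. The longest annotated transcript of MALAT1 runs past the cut and held neither motif in its own last 100 bases. The search can thus miss ends made by such a cut, and how often those hold both motifs was not tested.

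Inside the transcripts there are further runs of A, shown because an oligo-dT primer can pair with a run as well as with a tail. Capitals mark the longest run in the exons of TUG1 and OIP5-AS1. For the 5 RNAs reported here, the longest run was 13 bases in MALAT1 (the run shown above), 18 in TUG1, 10 in NORAD, 29 in OIP5-AS1 and 10 in CRNDE.
TUG1, chr22:30976039-30976106, plus strand: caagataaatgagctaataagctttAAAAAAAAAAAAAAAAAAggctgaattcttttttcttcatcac
OIP5-AS1, chr15:41301946-41302024, plus strand: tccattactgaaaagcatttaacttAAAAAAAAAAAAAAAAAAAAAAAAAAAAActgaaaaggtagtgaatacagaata
A run of at least 12 A was present in 6.75% of the longest lncRNA transcripts, which were not matched in length to these RNAs. Counted per 10 kb of span, such runs were denser in MALAT1 than in 38.4% of annotated genes past the limit. For TUG1, OIP5-AS1, NORAD and CRNDE this share was 75.6%, 77.9%, 0% and 25.7%. Where on a transcript the reads began was not analysed here, so the part that tails and runs had in the counts was not tested.

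NORAD is shown for its Pumilio elements, TGTANATA, in capitals in the window that holds 2 of them.
NORAD, chr20:36049488-36049534, minus strand: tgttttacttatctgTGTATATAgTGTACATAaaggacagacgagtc
Its transcript of 5401 bases held 15 such elements, or 2.78 per kb. Of 604 other lncRNA genes with a longest transcript of like length, 40.9% held at least 1 element, the median was 0, and 3 held at least as many as NORAD. The longest transcripts of NEAT1, TUG1 and OIP5-AS1 held 6, 2 and 1, and those of MALAT1, PVT1 and CRNDE held 0.

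The genes differ widely in extent, as annotated by GENCODE on GRCh38. MALAT1 spans 10.4 kb on chromosome 11 (65497640 to 65508073), with all of its span exonic, and NEAT1 spans 22.8 kb upstream of it (65422774 to 65445540), also all exonic. TUG1 covers 10.2 kb on chromosome 22 (30969245 to 30979395) and is classed as protein-coding in this release. NORAD covers 5.40 kb on the minus strand of chromosome 20 (36045618 to 36051018) in a single exon. OIP5-AS1 spans 38.4 kb on chromosome 15 (41283958 to 41322392), of which 22.4 kb are exons of one or another transcript. It overlaps OIP5 on the opposite strand and NUSAP1 on its own strand, and both were counted, so reads in the shared parts cannot be assigned with certainty, since the strand setting of the counting is not given in the sources used here. PVT1 spans 393 kb on chromosome 8 (127794526 to 128187101), and 6.48% of that is exonic. CRNDE spans 84.0 kb on the minus strand of chromosome 16 (54845189 to 54929189). The median span of placed genes past the limit was 50.8 kb, so that 5 of the 7 genes are shorter than the median gene and CRNDE and PVT1 are longer.

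The totals were 10089552 counts in Post, RNA and DNA, 6368721 in Post, RNA only, 8960724 in Pre, RNA and DNA and 9379073 in Pre, RNA only. The clone-named genes FP236383 and FP671120, 6 symbols in all, held 34.8% of the Post, RNA only library and between 10.7% and 15.8% of the other libraries, which lowers the RPM of every other gene there. Ratios were therefore centred on the median over the genes that passed the limit. Pluripotency markers were present, with a sum of 2334 to 3253 RPM over 10 genes and none at 0. The 7 markers of mesoderm and endoderm summed to 5.65 to 9.51 RPM, with 1 or 2 of them at 0 in each library. The 3 neural markers summed to 154 to 204 RPM, nearly all of it NES, and the 5 fibroblast markers to 152 to 221 RPM, mostly THY1. Each condition is 1 library, so no difference has a replicate check, and all intervals are exact 95% intervals that cover counting error only.

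MALAT1 was the most abundant of the 7 and took more than all the others combined. It had 1526 RPM (interval 1502 to 1550) in Post, RNA and DNA, 1101 (1075 to 1127) in Post, RNA only, 1786 (1758 to 1814) in Pre, RNA and DNA and 1716 (1690 to 1743) in Pre, RNA only. In RPM, which is not centred, the Post, RNA only library was the lowest by a wide margin and the Pre libraries the highest. Centred on all genes, MALAT1 had a log2 ratio of −0.20 for Post, RNA only over Pre, RNA only. MALAT1 made up 54.0%, 56.4%, 56.6% and 55.9% of the counts of the 7 RNAs in the 4 libraries, in the order above. Altogether the 7 RNAs took 0.283%, 0.195%, 0.315% and 0.307% of all counts. The other lncRNA genes of the annotation took 4.47%, 3.25%, 4.35% and 4.32%. These shares cover only symbols matched to the annotation, and 11305 of the 33640 symbols were not matched. As shares of all counts, both classes were thus smallest in Post, RNA only, where the clone-named genes took 34.8%. Those shares are not centred. Centred on all genes, the other lncRNAs past the limit had a median log2 ratio of −0.01 for Post, RNA only over Pre, RNA only.

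NEAT1, transcribed next door to MALAT1, was far less abundant. It had 30.1 RPM (26.8 to 33.7) in Post, RNA and DNA, 21.2 (17.8 to 25.1) in Post, RNA only, 36.3 (32.4 to 40.4) in Pre, RNA and DNA and 38.4 (34.5 to 42.6) in Pre, RNA only. The order of the libraries was close to that of MALAT1, with Post, RNA only lowest, while the Pre libraries overlapped in their intervals.

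TUG1 had 121 RPM (115 to 128) in Post, RNA and DNA, 98.6 (91.0 to 107) in Post, RNA only, 145 (138 to 153) in Pre, RNA and DNA and 126 (119 to 133) in Pre, RNA only. The Pre, RNA and DNA library stood highest, and the Post, RNA and DNA and Pre, RNA only libraries overlapped in their intervals.

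NORAD, the Pumilio decoy, had 161 RPM (153 to 169) in Post, RNA and DNA, 159 (150 to 169) in Post, RNA only, 202 (193 to 212) in Pre, RNA and DNA and 172 (164 to 181) in Pre, RNA only. Both Post libraries were alike and the Pre, RNA and DNA library lay above the rest. OIP5-AS1 had 133 RPM (126 to 140), 119 (111 to 128), 139 (131 to 147) and 129 (122 to 136) in the same 4 libraries, in that order. Its RPM values were the closest together of the 7, with the highest library 1.17 times the lowest. In RPM, 3.89% of genes had a smaller spread. RPM is not centred, and most genes were lowest in Post, RNA only. Centred on all genes, the log2 ratio of OIP5-AS1 for Post, RNA only over Pre, RNA only was 0.32.

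PVT1 had 848 RPM (830 to 866) in Post, RNA and DNA, 447 (431 to 464) in Post, RNA only, 839 (820 to 858) in Pre, RNA and DNA and 884 (865 to 903) in Pre, RNA only. The Post, RNA only library stood well apart below the rest, and the other 3 differed by little. The highest library was 1.98 times the lowest in RPM, a wider spread than in 93.5% of genes.

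CRNDE had 72, 46, 52 and 64 counts in the 4 libraries, in the same order, or 7.14 RPM (5.58 to 8.99), 7.22 (5.29 to 9.63), 5.80 (4.33 to 7.61) and 6.82 (5.26 to 8.71). All 4 intervals overlapped, so no difference of CRNDE was detectable at this depth. Of the 7 RNAs, 6 were lowest in Post, RNA only, as were 82.5% of the 11564 genes, and CRNDE alone was lowest in Pre, RNA and DNA.

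**Figure D1:**
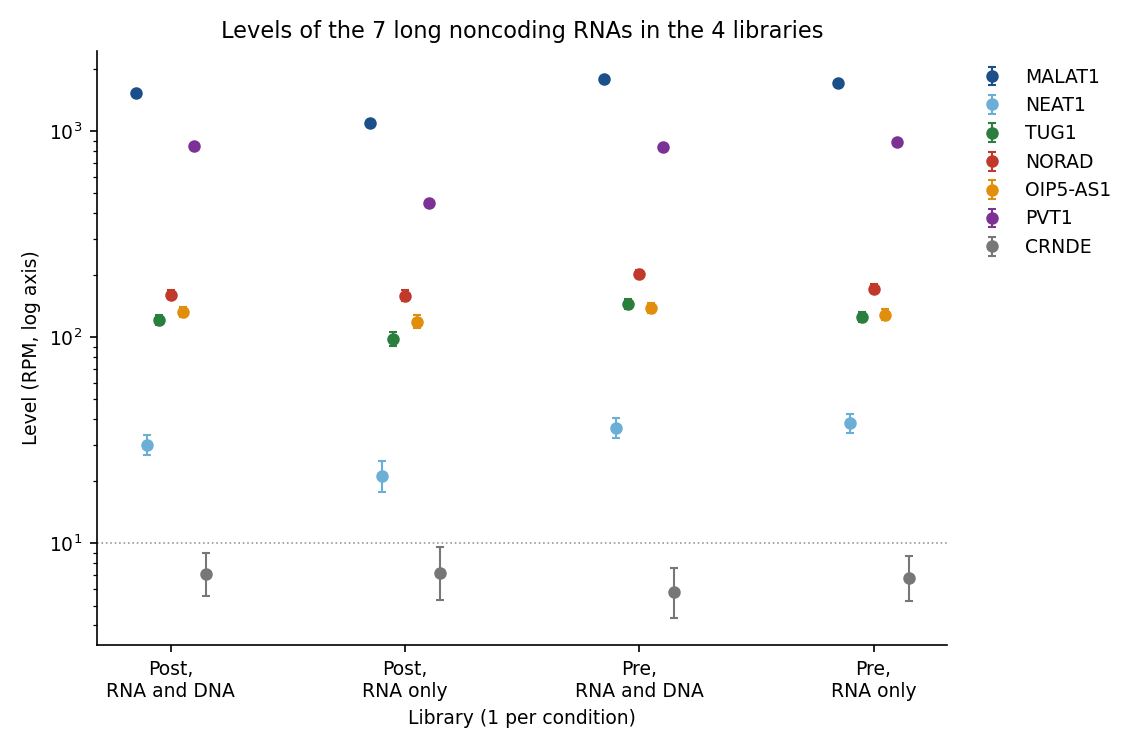
Levels of the 7 RNAs in RPM on a log axis, 1 library per condition, with exact 95% counting intervals; the dotted line marks 10 RPM. MALAT1 stands between 1101 and 1786 RPM and CRNDE between 5.80 and 7.22 RPM, and PVT1 drops to 447 RPM in Post, RNA only against 839 to 884 RPM in the other libraries.

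Levels of different genes were compared per kb of annotated exons. MALAT1 came first with 105 to 171 RPM per kb over the 4 libraries, between 3.57 and 4.73 times the next of the 7 within a library. NORAD followed with 29.5 to 37.4 RPM per kb and PVT1 with 17.6 to 34.8, and these ranges overlapped, with PVT1 above NORAD in Post, RNA and DNA (33.3 against 29.8) and in Pre, RNA only (34.8 against 31.9). TUG1 had 9.71 to 14.3, OIP5-AS1 5.32 to 6.20, NEAT1 0.931 to 1.69 and CRNDE 0.394 to 0.490 RPM per kb, and none of these ranges overlapped with its neighbours. The mean of MALAT1 per kb of exons was above 99.6% of the 10444 genes that could be placed, with 10 of 571 other lncRNAs higher, whereas NEAT1 was above only 2.94%. NEAT1 was divided by 22.8 kb here and below, the extent of its long form, which has no poly(A) tail. Which form of NEAT1 the counts came from was not analysed, and a shorter length would give a higher level per kb.

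The order depends on which length is used. Over the whole span of the gene PVT1 had 1.14 to 2.25 RPM per kb, between OIP5-AS1 (3.10 to 3.61) and NEAT1 (0.931 to 1.69), and overlapped with NEAT1. MALAT1, NORAD and TUG1, whose spans are all exon, kept their values and led the order. By this measure MALAT1 was above all 571 other lncRNAs and NEAT1 above 71.4% of genes. Whether reads in introns were counted is not given in the sources used here, so neither length is known to be the right one for PVT1.

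**Figure D2:**
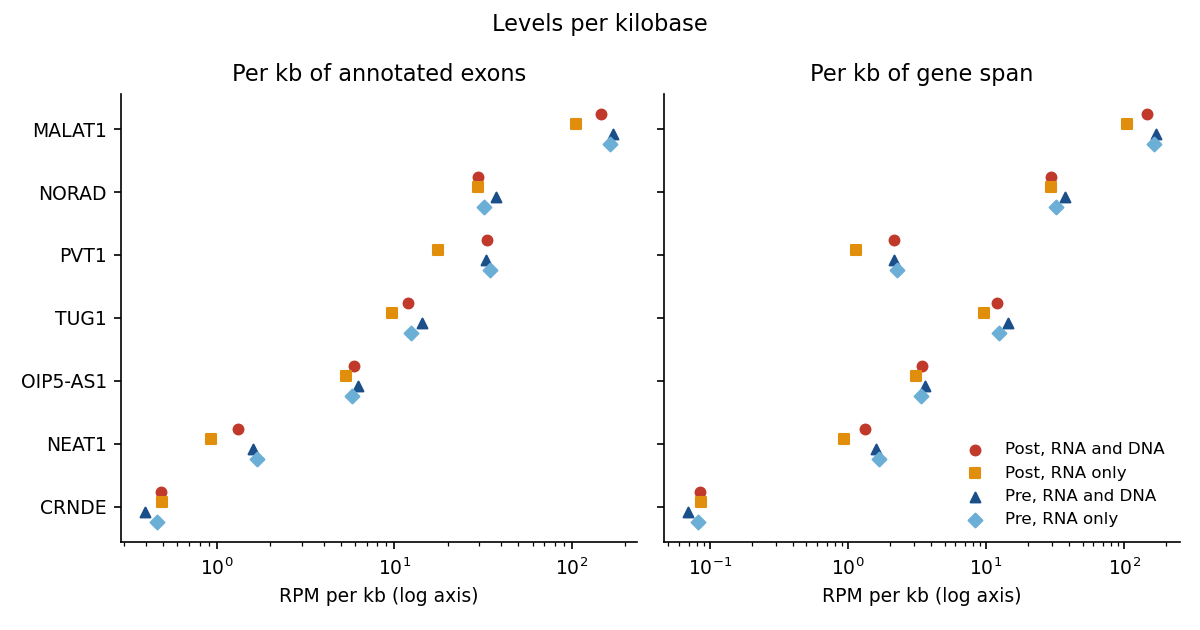
Levels in RPM per kb on log axes, for each of the 4 libraries (symbols), per kb of annotated exons on the left and per kb of the gene's span on the right. PVT1 lies beside NORAD on the left (17.6 to 34.8 RPM per kb) and beside NEAT1 on the right (1.14 to 2.25), and MALAT1 is first on both sides.

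The first question was what the order of RT did to these RNAs when no histone mark was read. The libraries Post, RNA only and Pre, RNA only are called the pair without marks, and Post, RNA and DNA and Pre, RNA and DNA the pair with marks. A relative log2 ratio is the log2 ratio of RPM plus 1 minus the median of all genes, which was −0.44 for Post over Pre in the pair without marks. PVT1 stood lowest of the 7 at −0.54 (interval −0.61 to −0.48), and only 2.84% of the 11564 genes were lower. NEAT1 had −0.39 (−0.71 to −0.13) and MALAT1 −0.20 (−0.24 to −0.16), with 8.32% and 24.0% of genes lower. NORAD and OIP5-AS1 lay on the other side of the median at 0.33 (0.21 to 0.44) and 0.32 (0.19 to 0.46), with 15.02% and 15.2% of genes higher. TUG1 had 0.09 (−0.05 to 0.23) and CRNDE 0.51 (−0.06 to 1.09), both with intervals that include 0. As plain ratios of RPM plus 1, every one of these but CRNDE was below 1, from 0.506 for PVT1 to 0.926 for NORAD, so NORAD, OIP5-AS1 and TUG1 lie above 0 on the relative scale only.

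No member reached a relative 2-fold difference in this pair, 0 of the 6 past the limit, where 1.38% of all genes did (154 higher and 6 lower). The counting interval left out 0 for 5 of the 6, against 40.2% of all genes. Here and in the comparisons below these intervals narrow as counts rise, and the genes were not matched for depth. In Post, RNA only MALAT1 had 7010 counts and PVT1 2846, where a gene at 10 RPM has 64. The median of the 7 was 0.09 and that of the 6 past the limit −0.06. Its sign turned in the same way when NORAD or OIP5-AS1 was left out instead of CRNDE. The 571 other lncRNAs past the limit had a median of −0.01.

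The second pair asked the same with DNA profiled. Here Post over Pre had a median of −0.09 over all genes, and the 7 RNAs lay closer together. So did the 11564 genes past the limit, with a standard deviation of 0.25 here against 0.36 in the pair without marks. NORAD had −0.23 (−0.33 to −0.14), with 17.0% of genes lower. NEAT1 and TUG1 had −0.17 each (−0.40 to 0.06 and −0.28 to −0.05) and MALAT1 −0.13 (−0.17 to −0.10). OIP5-AS1 was at 0.03 (−0.08 to 0.14), PVT1 at 0.11 (0.06 to 0.15) and CRNDE at 0.35 (−0.14 to 0.94). MALAT1 thus lay below the median of all genes in both pairs, which share no library, with both intervals below 0. A relative 2-fold difference was reached by 0 of 6, against 0.251% of all genes, and the interval left out 0 for 4 of 6, against 37.4%. The median of the 7 was −0.13 (−0.15 for the 6 past the limit), where the other lncRNAs had 0.09.

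NORAD and PVT1 went opposite ways in the pairs. NORAD was above the median of all genes without marks and below it with marks, a difference of 0.56, and PVT1 the reverse, a difference of −0.65. Of all genes, 84.1% and 88.8% had a smaller difference in size. MALAT1 had −0.07, NEAT1 −0.22, TUG1 0.26, OIP5-AS1 0.29 and CRNDE 0.16. With 1 library per condition none of these differences could be tested against replicates.

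**Figure D3:**
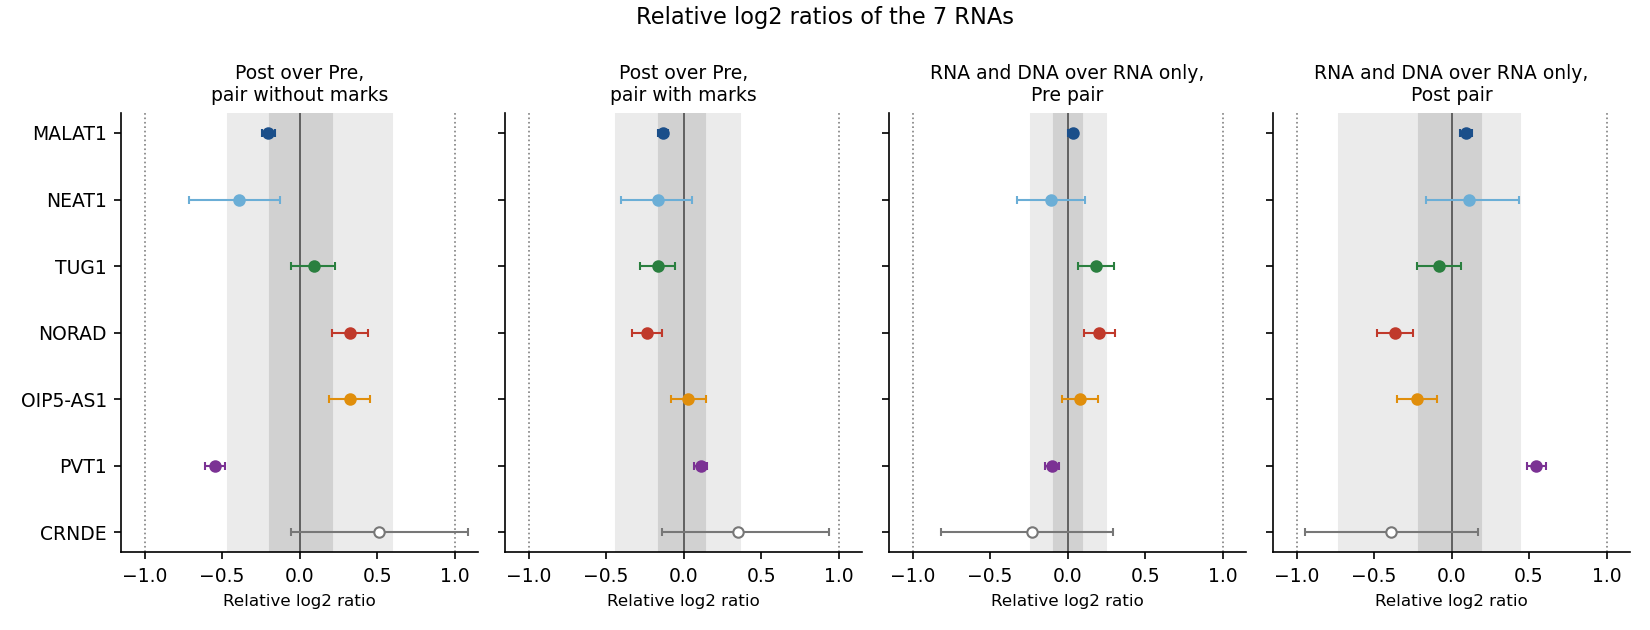
Relative log2 ratios of the 7 RNAs in the 4 comparisons (points, with exact 95% counting intervals; the open circle is CRNDE, under 10 RPM), against the middle 50% (dark grey) and 90% (light grey) of the 11564 genes; dotted lines mark 2-fold. PVT1 lies outside the light band at −0.54 in the first panel and 0.54 in the last, and no point reaches a dotted line.

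The remaining comparisons set RNA and DNA libraries over RNA only libraries, and share libraries with those above. Among Pre libraries the median of all genes was 0.03, and the members past the limit lay between −0.10 and 0.20 relative to it. NORAD had 0.20 (0.11 to 0.30) and TUG1 0.18 (0.07 to 0.30), with 7.97% and 9.94% of genes higher. OIP5-AS1 had 0.08 (−0.03 to 0.20), MALAT1 0.03 (0.0006 to 0.06), PVT1 −0.10 (−0.15 to −0.06), NEAT1 −0.10 (−0.33 to 0.11) and CRNDE −0.23 (−0.82 to 0.29). The 2-fold limit was reached by 0 of 6, against 0.0173% of all genes, and 4 of 6 intervals left out 0, against 14.5%. The median of the 7 was 0.03 and that of the other lncRNAs −0.02.

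Among Post libraries the median of all genes was 0.38. PVT1 stood highest of the 7 at 0.54 (0.48 to 0.61), with 2.02% of genes higher. NORAD had −0.37 (−0.48 to −0.25) and OIP5-AS1 −0.22 (−0.35 to −0.09), with 15.3% and 24.3% of genes lower. MALAT1 had 0.09 (0.05 to 0.13), NEAT1 0.11 (−0.17 to 0.43), TUG1 −0.08 (−0.22 to 0.06) and CRNDE −0.39 (−0.95 to 0.17). Again 0 of 6 were 2-fold apart, against 2.36% of all genes, of which 268 were lower and 5 higher. The interval left out 0 for 4 of 6, against 41.1%. The median was −0.08 for the 7, 0.01 for the 6 past the limit and 0.09 for the other lncRNAs.

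An additive edgeR fit of both factors over the 4 libraries, with 1 residual degree of freedom, takes the difference between the pairs as error. It called 0 of 6 members for the order of RT, where it called 0.0173% of all genes, and 0 of 6 for DNA profiling, where it called 0% of all genes, with 67 genes at an unadjusted p under 0.05. No member had an unadjusted p under 0.05 in edgeR's quasi-likelihood test or in DESeq2, for which 26 genes were called for the order of RT and 1 for DNA profiling. The lowest unadjusted p of a member in the edgeR fit was 0.154, for NEAT1 and the order of RT, with a log2 difference of −0.27 and an adjusted p of 0.9996 over all genes after Benjamini-Hochberg adjustment.

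Gene span moved with the ratios, and the members were set beside genes of like span. In the pair without marks the median relative log2 ratio of Post over Pre was 0.40 for 972 genes under 10 kb, 0.09 for 2431 genes of 10 to 30 kb, −0.04 for 3961 genes of 30 to 100 kb, −0.09 for 2285 genes of 100 to 300 kb and −0.04 for 789 genes of 300 kb and over. In the pair with marks the medians of these classes were −0.26, −0.12, −0.01, 0.08 and 0.17. Short genes were thus above the median of all genes without marks and below it with marks.

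NORAD, the shortest of the 7, lay in the middle of its class under 10 kb in both pairs, with 42.5% and 53.8% of that class lower. Of the 972 genes in that class 905 are protein-coding, and values for lncRNAs alone are given below. TUG1 lay in the middle of the 10 to 30 kb class in the pair without marks, with 50.3% lower, and at 41.6% in the pair with marks. MALAT1 and NEAT1 belong to the same class and were low in it in the pair without marks, with 16.5% and 6.38% of its genes lower, but not in the pair with marks, with 47.0% and 41.6% lower. OIP5-AS1 was high among genes of 30 to 100 kb in the pair without marks, with 7.80% higher, and near the middle in the other, with 40.8% higher. PVT1 was low among genes of 300 kb and over in the pair without marks, with 2.41% lower, and had 30.3% lower in the pair with marks. Among 112 other lncRNAs of 10 to 30 kb in the pair without marks the median was −0.03 and the middle 50% ran from −0.28 to 0.27, which takes in MALAT1 but not NEAT1. For the other lncRNAs alone, the median in the pair with marks was 0.03 for 64 genes under 10 kb. It was 0.17 for 88 genes of 300 kb and over. The middle 50% of the 64 genes ran from −0.06 to 0.54 in the pair without marks, which takes in NORAD. In the pair with marks it ran from −0.20 to 0.18, and NORAD at −0.23 lay below it.

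**Figure D4:**
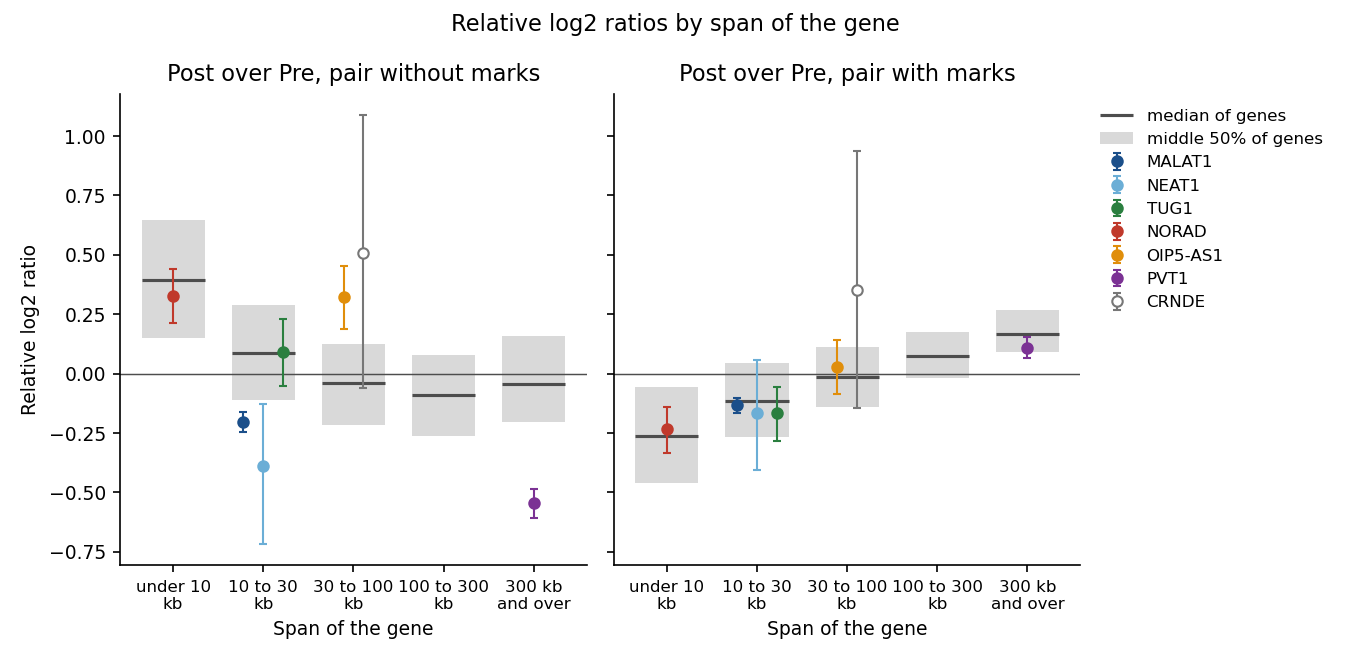
Relative log2 ratio of Post over Pre for genes grouped by span (line, median; grey, middle 50% of genes) and for the 7 RNAs (points, with exact 95% counting intervals; open circle, CRNDE, under 10 RPM). NORAD lies near its class medians of 0.40 and −0.26, while PVT1 at −0.54 and NEAT1 at −0.39 lie below the middle 50% of theirs in the pair without marks.

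Mitochondrial mRNAs also differed between the pairs. The 8 mitochondrial mRNAs, which lie in mitochondria and so outside the nucleus, summed to 3735 RPM in Post, RNA and DNA, 4608 in Post, RNA only, 5469 in Pre, RNA and DNA and 4910 in Pre, RNA only, with none at 0. Relative to all genes, all 8 were above 0 in the pair without marks (median 0.38, range 0.08 to 0.80) and all 8 below 0 in the pair with marks (median −0.37, range −0.76 to −0.14). The 972 genes under 10 kb had medians of the same signs, 0.40 and −0.26, so these signs are not particular to mitochondrial mRNAs. MT-CO1 and MT-CO3, subunits of cytochrome c oxidase and the most abundant of the 8, had 0.15 and 0.50 in the pair without marks and −0.62 and −0.43 in the other. NORAD, with 0.33 and −0.23, and TUG1, with 0.09 (interval including 0) and −0.17, had the signs of all 8, and PVT1 the opposite ones. OIP5-AS1, with 0.32 and 0.03, was above 0 in both pairs, in the second with an interval including 0. The part of span or of cytoplasmic RNA in the members' ratios was not tested.

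The proteins that work with these RNAs are given from lists of their genes. All 14 paraspeckle proteins passed the limit, and 0 of them were 2-fold apart in any comparison. Their median was 0.12 in the pair without marks (9 above 0, 5 below), −0.11 in the pair with marks (5 above, 9 below), 0.05 among Pre libraries and −0.09 among Post libraries. TAF15, an RNA-binding protein and the most abundant of the list with a mean of 340 RPM, had −0.10 in the pair without marks and −0.21 in the pair with marks.

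The 9 nuclear speckle proteins had medians of 0.06 and −0.22 in the pairs without and with marks, with 5 and 2 of 9 above 0. SRRM2 and SON, the large proteins on which speckles are built, had 0.13 and 0.06 in the pair without marks and 0.13 and −0.20 in the other. SRSF2, a splicing factor of the SR family, had the highest value of the list in the pair without marks, 0.66, and was named after its value was seen.

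For the tailless 3′ ends, 12 of 13 listed genes were counted and 7 passed the limit. Their medians were 0.06 in the pair without marks and −0.18 in the pair with marks. METTL16, a methyltransferase that binds the MALAT1 triple helix, had −0.41 and −0.09, and ELAC2, which trims the tRNA-like fragment, had 0.36 and 0.59. ELAC2 was above 0 in both pairs and METTL16 below it in both, signs that are given here without counting intervals. The RNA subunit of RNase P was not analysed here.

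The 5 binding proteins of NORAD and OIP5-AS1 had medians of −0.08 and −0.05, with 1 of 5 above 0 in each pair. RBMX, a NORAD partner, had −0.05 and −0.16. Of 12 genes next to the members that were counted, 8 passed, with medians of −0.12 and −0.02. NUSAP1, a spindle protein whose gene overlaps OIP5-AS1, had −0.27 and −0.34, and MORC2, next to TUG1, −0.12 and 0.08. OIP5-AS1 had 0.32 and 0.03 in these pairs and so did not share the values of NUSAP1, although the same reads could be counted for both.

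**Figure D5:**
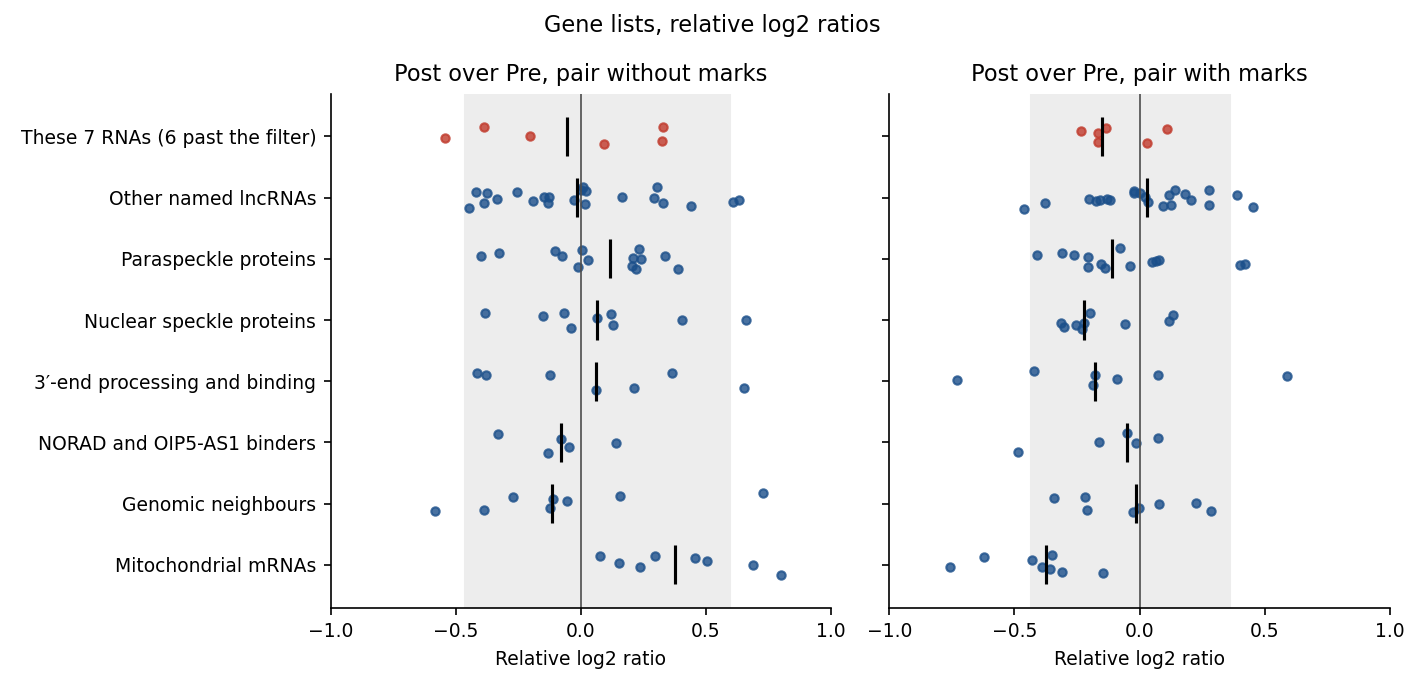
Relative log2 ratios of Post over Pre for the members past 10 RPM (red) and for the genes of 7 lists (blue), each point 1 gene, with the list's median as a bar and the middle 90% of all genes in grey. The mitochondrial mRNAs lie above 0 in the left panel (0.08 to 0.80) and below 0 in the right (−0.76 to −0.14), and the other lists straddle 0 in both.

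Of 28 other named lncRNAs 22 passed the limit, with medians of −0.01 in the pair without marks (11 above 0, 11 below) and 0.03 in the pair with marks (13 above, 9 below), and 0 of them were 2-fold apart. The most abundant were SNHG14, a long transcript of the Prader-Willi region, with a mean of 3852 RPM, FTX with 1059, JPX with 376 and DLEU1 with 307. SNHG14 had 0.30 and 0.28 in the pairs, FTX −0.15 and 0.13, JPX −0.03 and 0.14 and DLEU1 −0.19 and 0.28. In the pair without marks the highest was EPB41L4A-AS1 (0.63) and the lowest MIAT (−0.45), and in the pair with marks the highest was KCNQ1OT1 (0.46), the antisense RNA of an imprinted domain, and the lowest DANCR (−0.46). Among Pre libraries the ends were DANCR (0.19) and LINC00667 (−0.18), and among Post libraries CYTOR (0.51) and DANCR (−0.89). DANCR, a host of snoRNAs, had the signs of NORAD in all 4 comparisons and larger sizes in 3 of them. PVT1, at −0.54, lay below all 22 in the pair without marks and, at 0.54, above all 22 among Post libraries.

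The genes whose pattern over the 4 libraries was most like that of each member were found by the root mean square difference of log2 RPM plus 1, each gene centred on its own mean, among genes of at least 50 RPM. For MALAT1 these were CALD1, WDFY1 and SMARCA4, with differences of 0.01 each. CALD1 had 270 RPM in Post, RNA and DNA, 195 in Post, RNA only, 314 in Pre, RNA and DNA and 306 in Pre, RNA only. For NEAT1 they were CUL4A, BAZ2A and PIGL (0.01 to 0.02), for TUG1 MRPS9, SLC25A13 and APELA (0.01 to 0.02) and for NORAD IRAK1BP1, CCNB1 and MIER1 (0.02 each). OIP5-AS1 was closest to PSMD14, YBX1 and DZIP3 (0.00 to 0.01) and PVT1 close to FRMD4A (0.01) and TMEM178B (0.02). FRMD4A had 336, 178, 330 and 345 RPM in the same library order, with Post, RNA only far below the rest as in PVT1. CRNDE had no gene this near, with 0.05, 0.06 and 0.07 for ZNF138, AL662797.1 and AC124312.5. A likeness over 4 libraries is a description, and 4226 genes or more were searched for each.

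Among the 7 themselves, MALAT1 and NEAT1 were the closest, with a difference of 0.07, yet 6.65% of the genes searched were nearer to NEAT1 than MALAT1 was, and 17.9% were nearer to MALAT1 than NEAT1 was. NORAD and OIP5-AS1 came next with 0.09, with 7.79% of genes nearer to NORAD and 13.7% nearer to OIP5-AS1. PVT1 was 0.36 from NORAD, with 90.2% of genes nearer to PVT1, and 0.16 from NEAT1.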

How the data were processed

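The authors deposited counts per gene symbol, whole numbers with no normalization, made from reads aligned to GRCh38. The submitters' processing notes name STAR 2.7.11b, SAMtools, Bowtie2 2.5.3, Bowtie 1.3.1 and Trim Galore 0.6.10. The annotation and strand setting of the counting are not given in the sources used here. The 60 further barcode columns, which no label assigns, were not used. Totals were 6368721 to 10089552, so a gene at 10 RPM has 64 to 101 counts. Counts were divided by totals (RPM), 1 RPM was added, and log2 ratios were centred on the median of genes averaging 10 RPM or more. Intervals of ratios are exact conditional 95% intervals without the added 1 RPM. With 1 library per condition a gene was called at 2-fold. Symbols were matched to GENCODE release 44, with 21841 found by current and 494 by older symbol, and 11305 unmatched. Sequences are from GRCh38, and the end of MALAT1 was set by the start of MASCRNA in RefSeq. The members and the 11 gene lists were chosen with earlier results of these data known. Named were all 7 members, the 3 genes nearest in pattern to each, the 2 most abundant genes of each list, and the most abundant and most extreme of the other lncRNAs past the limit; a few of these, and 1 sequence, are not reported here. Scripts were tested on simulated data. R 4.3.3, edgeR 4.0.16, DESeq2 1.42.0, Python 3.11.15 and scipy 1.17.1 were used.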

Additional observations from a re-analysis of the deposited data

Results flagged for a closer look

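NORAD and PVT1 stood out because their relative log2 ratios of Post over Pre had opposite signs in the pairs without and with marks, each with a counting interval that left out 0. The difference was 0.56 for NORAD (0.33 and −0.23) and −0.65 for PVT1 (−0.54 and 0.11). The difference was not tested, since each condition is 1 library. Without centring NORAD was −0.11 and −0.33, so its opposite signs exist on the relative scale only, and PVT1 was −0.98 and 0.02.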

How the results depend on the processing

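No member was 2-fold apart (0 of the members past the limit in each of the 4 comparisons) under any alternative run. DESeq2 and an edgeR fit of all genes with a count also called 0 members. At 1.5-fold 0 members were called, but this limit was run with the main centring only. In the pair without marks some members passed 1.5-fold under other settings. With no filter on mean RPM PVT1 had −0.76 and NEAT1 −0.61, and without centring they had −0.98 and −0.83. Among Post libraries PVT1 had 0.68 with no filter. Over all genes the order of RT and DNA profiling gave 2 and 0 calls with edgeR, 26 and 1 with DESeq2, and 152 and 63 with edgeR on all genes with a count. Without centring, the median of the 7 was −0.35 in the pair without marks, −0.23 in the pair with marks and 0.30 among Post libraries. With no filter on mean RPM it was −0.13 in the pair without marks and −0.22 in the pair with marks. In the pair with marks it was −0.19 with TMM sizes, −0.19 with median-of-ratios factors, −0.18 when centred on genes of at least 1 RPM and −0.23 when centred on the other lncRNAs. The cause was not tested, beyond the shift of the centre that each setting makes. Leaving out 1 of the 7 RNAs at a time turned the sign of 3 of the 4 medians. The median ran from −0.06 (without NORAD, OIP5-AS1 or CRNDE) to 0.21 in the pair without marks, from −0.03 (below 0 without MALAT1, TUG1, NORAD or OIP5-AS1) to 0.06 among Pre libraries and from −0.15 to 0.01 (without NORAD, OIP5-AS1 or CRNDE) among Post libraries. It stayed below 0 in the pair with marks, from −0.15 to −0.05. Of 28 single values, 7 had another sign without centring, 3 with no filter, and 0 or 1 under each other setting. The lead of MALAT1 over the next RNA was 3.57 to 4.73 times per kb of exons and 3.57 to 5.16 times per kb of span. No paired analysis was possible because the groups share 1 replicate number only, though the additive fits compare Post with Pre with DNA profiling as a term. Leaving out a library left no residual degree of freedom, so no such fit was made. The depth limits CRNDE, with 46 to 72 counts, and NEAT1, with 135 to 360.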
